A study of Mus musculus with 4 samples.

Results

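The transcripts of 10 plasma proteins made by hepatocytes were described across vehicle and tamoxifen. They are Alb, Afp, Afm and Gc of the albumin family, together with Ttr, Ambp, Apoh, Rbp4, Ahsg and Azgp1. The members were chosen by name as plasma protein genes that are not induced, or are repressed, in the acute phase of inflammation. The rule used no measured value, though earlier results of these data were known. All 10 were among the 22298 genes listed in the files, and all 10 were among the 11633 genes that reached 1 FPKM in at least 2 of the 4 libraries and were tested. FPKM gives the sequenced fragments of a gene for each kilobase of its transcript, relative to the total of the library. Primary hepatocytes came from wild-type male C57BL/6 mice, bought at 8 weeks of age and fed a diet lacking methionine and choline (MCD) for 6 weeks, which causes steatohepatitis. Poly(A) RNA of 2 groups was sequenced, with 2 libraries in each. In one group the mice had been given tamoxifen, a selective estrogen receptor modulator, at 100 mg/kg in corn oil by intraperitoneal injection on 5 consecutive days. In the other they had been given vehicle, and the MCD diet was common to both groups. The labels do not say that the libraries came from separate mice, so p-values measure the spread between these libraries, which may be technical. In limma the spread of a gene is drawn toward that of other genes at a like level.

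Plasma proteins are secreted by hepatocytes into the blood, where they hold water in the vessels and carry ligands that dissolve poorly. Albumin, alpha-fetoprotein, afamin and vitamin D-binding protein arose from one ancestral gene by duplication, and their genes still lie together in mammals. Albumin is made at high levels in adult liver, whereas alpha-fetoprotein is the main plasma protein of the fetus and its gene is repressed after birth. Several of these proteins, albumin and transthyretin among them, are called negative acute phase proteins because they fall in human plasma during inflammation.

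The gene family is clustered on mouse chromosome 5. In the GRCm38 build with GENCODE annotation, Alb lies at chr5:90460897-90476602, Afp at chr5:90490737-90508907 and Afm at chr5:90518932-90553543, all on the plus strand. A stretch of 14134 bases separates Alb from Afp and one of 10024 bases separates Afp from Afm. Gc lies on the minus strand at chr5:89417522-89457898, which is 1002998 bases from Alb. The longest coding transcripts of Alb and Afp both have 15 exons, that of Gc has 13 and that of Afm has 10. The other members lie apart. Azgp1 is also on chromosome 5 (chr5:137981520-137990233, plus strand), and Ambp is at chr4:63143275-63154799 on the minus strand. Apoh is at chr11:108343354-108414396 on the plus strand, Ahsg at chr16:22891277-22899449 on the plus strand and Rbp4 at chr19:38116629-38125281 on the minus strand.

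The 250 bases before the RefSeq start of each of the 4 albumin family genes are shown because Afp fell while its neighbours Alb and Afm were at higher levels. Sequences are from RefSeq on GRCm38.p6, 5′ to 3′ on the strand of the gene, and each ends at the base before the start. The windows are chr5:90460620-90460869 for Alb, chr5:90490464-90490713 for Afp, chr5:90518699-90518948 for Afm and chr5:89457899-89458148 for Gc. Capitals mark CCAAT on either strand (ATTGG where it lies on the other strand), the box of nuclear factor Y (NFY).
Alb: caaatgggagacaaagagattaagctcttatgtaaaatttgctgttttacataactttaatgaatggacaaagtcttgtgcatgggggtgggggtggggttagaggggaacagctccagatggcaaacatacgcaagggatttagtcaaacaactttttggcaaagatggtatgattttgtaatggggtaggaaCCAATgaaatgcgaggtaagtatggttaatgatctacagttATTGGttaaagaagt
Afp: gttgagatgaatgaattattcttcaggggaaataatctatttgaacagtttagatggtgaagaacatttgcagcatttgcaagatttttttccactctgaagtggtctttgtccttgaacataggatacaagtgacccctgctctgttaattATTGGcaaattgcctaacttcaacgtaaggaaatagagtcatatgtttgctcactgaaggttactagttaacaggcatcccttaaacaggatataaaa
Afm: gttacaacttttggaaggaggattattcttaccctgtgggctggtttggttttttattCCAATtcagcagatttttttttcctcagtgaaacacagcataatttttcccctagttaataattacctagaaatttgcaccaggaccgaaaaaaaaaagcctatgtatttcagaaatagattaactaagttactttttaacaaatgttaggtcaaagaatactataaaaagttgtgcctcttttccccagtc
Gc: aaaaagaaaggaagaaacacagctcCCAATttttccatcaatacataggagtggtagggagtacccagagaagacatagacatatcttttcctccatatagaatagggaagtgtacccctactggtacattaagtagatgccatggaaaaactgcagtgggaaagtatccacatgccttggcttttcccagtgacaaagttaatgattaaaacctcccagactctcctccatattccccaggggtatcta
CCAAT occurred in all 4 windows. In Alb it lay at -56 to -52 from the start and, on the other strand, at -15 to -11. In Afp it lay on the other strand at -98 to -94, in Afm at -192 to -188 and in Gc at -225 to -221. CCAAT was found in 7 of the 9 members that had a window, and in 33.8% of all 32851 windows of this length. Of the other motifs searched on both strands, TATAAA, the box that positions the polymerase, was in 3 of 9 members, those being Afm, Afp and Rbp4, against 12.4% of all windows. TTGCNNAA, a form of the C/EBP site, was in 4 of 9 (Afp, Ahsg, Alb and Rbp4) against 9.56%, and TGTTTNC, a form of the FoxA site, in 6 of 9 against 17.8%. CAAAGNNCA, a form of the HNF4 site, was in Afp and Apoh and in 5.49% of all windows. A match is a description of letters and not a bound site. The RefSeq starts are not the GENCODE starts for every gene. The Alb window ends at 90460869, while the GENCODE gene starts at 90460897, and the TATAAA of Afp lay at -7 to -2. The windows of Ambp, Apoh and Ahsg, among others, lie inside the annotated genes. A motif missing from a window can therefore still lie near another start. Rbp4 had 2 windows, counted as 1 gene, and Ttr had no entry in the table.

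The members differed by more than 3 orders of magnitude within a library, with Alb at the top and Afp at the bottom in all 4. In vehicle the order of the mean FPKM was Alb, Ahsg, Gc, Ttr, Rbp4, Ambp, Apoh, Azgp1, Afm and Afp. Neighbours in that order did not overlap between libraries except Apoh and Azgp1. In tamoxifen the order was the same except that Ttr and Gc changed places, with overlapping ranges. Together the members took 8.80% and 6.87% of the summed FPKM in vehicle 1 and vehicle 2, and 11.3% and 10.6% in tamoxifen 1 and tamoxifen 2. That share was 3.13 percentage points higher in tamoxifen, and 0.552 points higher when Alb was left out. Alb made up 73.2% to 77.4% of the members' sum in each library.

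**Figure D1:**
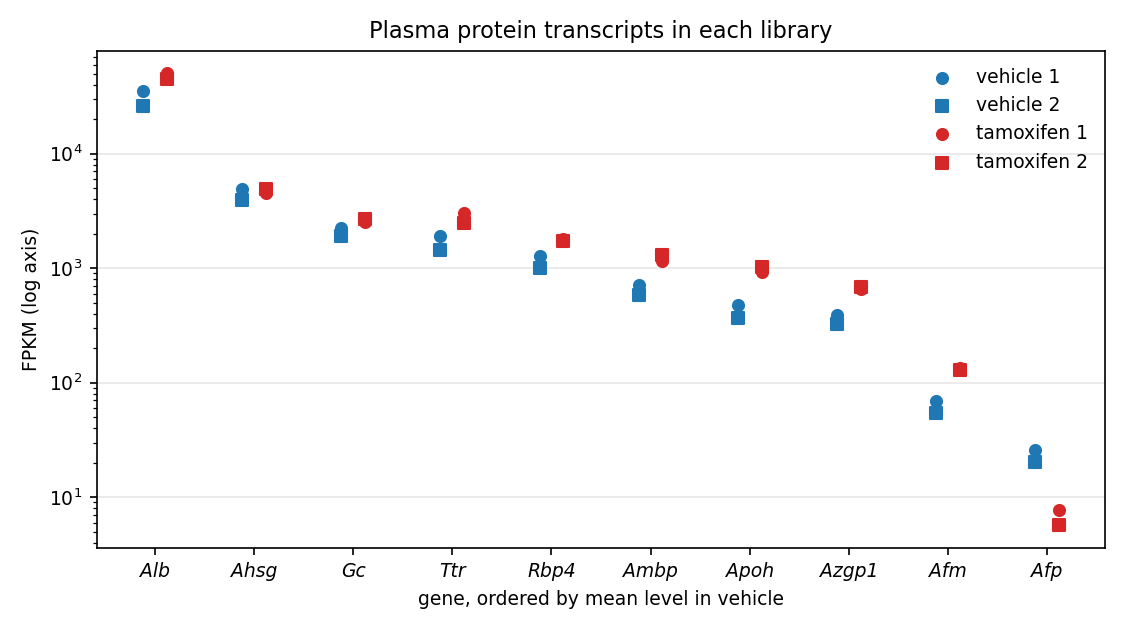
FPKM of the 10 plasma protein transcripts on a log axis, in the order of their mean in vehicle. Each point is 1 library (blue, vehicle; red, tamoxifen). The red points lie above the blue ones for 8 members, below them for Afp and among them for Ahsg.

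Relative to the other transcripts of the library, Afm, Apoh, Ambp and Azgp1 were higher after tamoxifen and Afp was lower. With limma on log2(FPKM + 1) and an adjusted p under 0.05, 4 of 10 members were higher, 1 was lower and 5 did not pass (Alb, Gc, Ttr, Rbp4 and Ahsg). Among all genes tested 4.31% were called higher, 46.7% lower and 51.0% in either direction. Both tamoxifen libraries were above both vehicle libraries for 8 of 10 members, against 9.48% of all genes, and below them for 1, against 71.9% of all genes. The median log2 fold change of the members was 0.68 and that of all genes was -0.60.

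These directions depend on how the libraries were scaled. Rescaling by median ratios moved the median of all genes to 0.06 and quantile normalization moved it to 0.08. Under median ratios 6 members were called higher and 1 lower, with 16.6% and 19.4% of all genes called. Under quantile normalization 1 member was called higher (Afm) and 1 lower (Afp), with 13.5% and 15.2% of all genes called. Scaled to Alb, 0 of the other 9 members were called higher and 1 lower (Afp), against 1.44% and 68.5% of all genes. When the libraries were scaled to 15 hepatocyte markers that are not members, 0 members were called higher and 1 lower (Afp), against 0.86% and 48.2% of all genes. The summed FPKM of the members was 4.77 and 5.40 times that of the 15 markers in vehicle, and 5.43 and 4.19 times in tamoxifen, and these ratios overlapped between groups.

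Markers of other cell types moved with the groups. Of 14 Kupffer cell markers 13 were lower in tamoxifen, and their summed FPKM was 1724 and 3483 in vehicle against 147 and 255 in tamoxifen. All 10 endothelial markers were lower (505 and 788 against 143 and 170), as were all 10 stellate cell markers (382 and 661 against 31.8 and 48.6) and 3 of 4 cholangiocyte markers tested (202 and 538 against 53.1 and 94.8). None of the Kupffer, endothelial, stellate or cholangiocyte markers was listed at 0 in any library. Of the 15 hepatocyte markers 10 were higher and 0 lower, with sums of 9939 and 6672 in vehicle against 11991 and 14400 in tamoxifen. Among all genes 4.31% were higher and 46.7% lower. Vehicle 2 had the highest sums of other cell types, and it alone held pancreatic acinar transcripts at a sum of 1105, against 8.08 to 46.0 in the others. All 10 members were lower in vehicle 2 than in vehicle 1, by 0.22 to 0.42 on the log2 scale, against 28.8% of all genes. In such bulk samples fewer cells of a type and less RNA per cell cannot be told apart, and the part of these cells in the members' changes was not tested. By the steps between low FPKM values, the depth was about 16700000 fragments in the shallowest library and about 20700000 in the deepest. The 100 most abundant genes took 53.1% and 44.4% of summed FPKM in vehicle and 62.2% and 64.0% in tamoxifen.

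**Figure D2:**
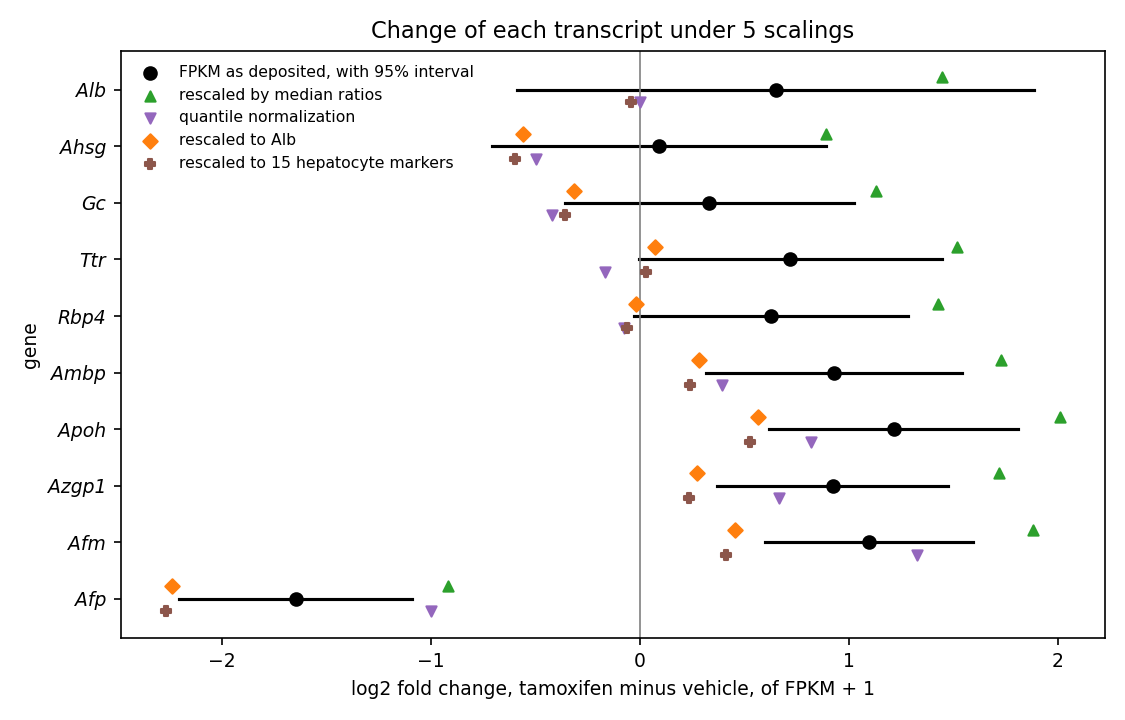
Log2 fold change (tamoxifen minus vehicle) of each member under 5 scalings. Black points with bars are the deposited FPKM with the 95% interval from limma, and the other symbols are the same value after rescaling. Afp lies left of 0 and Afm, Apoh, Ambp and Azgp1 lie right of 0 under all 5, whereas Gc, Ahsg, Rbp4, Ttr and Alb reach 0 or cross it with the scaling.

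Alb, albumin, keeps the colloid pressure of blood and carries fatty acids, bilirubin and drugs. It was the most abundant transcript in every library. Its level was 35301 and 26382 FPKM in vehicle and 50399 and 45402 FPKM in tamoxifen, so both treated libraries were above both controls. The means were 30841 ± 6307 and 47900 ± 3533 FPKM (SD, n = 2). Alb took 6.56% and 5.03% of summed FPKM in vehicle and 8.76% and 7.97% in tamoxifen. Its log2 fold change of 0.65 did not pass (standard error 0.53, 95% interval -0.59 to 1.89, adjusted p = 0.329 from limma). The spread that limma assigns to the most abundant genes is wide, and Alb passed when genes with a mean under 5 FPKM were left out (adjusted p = 0.0324) and without vehicle 1 (adjusted p = 0.0471). Scaled to the hepatocyte markers its log2 fold change was -0.042.

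Afp, alpha-fetoprotein, carries fatty acids in the fetus and is a marker of regenerating and transformed liver. It was at 26.0 and 20.3 FPKM in vehicle and at 7.76 and 5.68 FPKM in tamoxifen, and the groups did not overlap. This level corresponds to about 1109 and 824 fragments in vehicle and about 286 and 196 in tamoxifen, so counting error was small. Among all genes it moved from rank 2313 and 3371 to rank 4690 and 5558. Afp decreased by 1.65 in log2 units (standard error 0.24, 95% interval -2.20 to -1.09, adjusted p = 0.00197 from limma). It was lower and called under all 15 alternatives, at -2.27 to -0.92 with adjusted p up to 0.0354. Against a background of 46.7% of genes called lower, that call alone does not set Afp apart. Relative to Alb it was lower by 2.24 on the log2 scale when the libraries were scaled to Alb, where 68.5% of all genes were lower.

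Afm, afamin, is a vitamin E-binding protein that also carries Wnt proteins. Its level was 68.5 and 54.0 FPKM in vehicle and 133.9 and 128.2 FPKM in tamoxifen. The 2 treated libraries were close to each other and both above the controls, with a ratio of means of 2.14. Afm rose by 1.09 on the log2 scale (standard error 0.21, 95% interval 0.60 to 1.59, adjusted p = 0.00565 from limma). The call was lost when the libraries were scaled to Alb (0.45, adjusted p = 0.188) or to the hepatocyte markers (0.41, adjusted p = 0.432), and it held under the other 13 alternatives. An RNA annotated on the opposite strand, Gm43449, overlaps Afp. Another, Gm42109, overlaps the end of Afm and much of 5830473C10Rik, the gene downstream. Neither has an entry among the genes analysed, and the library kit does not keep strand. Their reads therefore cannot be told apart from those of Afp, Afm and 5830473C10Rik.

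Gc, the vitamin D-binding protein, carries vitamin D and scavenges actin released from dying cells. It was at 2242 and 1927 FPKM in vehicle and at 2537 and 2698 FPKM in tamoxifen. The treated libraries were the higher ones, by a small margin. The log2 fold change was 0.33 and did not pass (standard error 0.30, 95% interval -0.36 to 1.02, adjusted p = 0.370 from limma). The direction turned under quantile normalization (-0.42), when scaled to Alb (-0.32) and when scaled to the hepatocyte markers (-0.36).

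In the fit scaled to Alb, which tests the difference from it, Afp was lower (adjusted p = 2.3e-07 from limma), as were 68.5% of all genes. Afm (0.45, adjusted p = 0.188) and Gc (-0.32, adjusted p = 0.351) did not pass there. In the fits scaled to Alb or to the hepatocyte markers, limma took the spread from all genes at a like level. The spread of the gene itself did not enter. The standard error of Afm scaled to Alb was 0.32, while its log2 ratio to Alb had an SD of 0.056 in vehicle and 0.062 in tamoxifen. For each Afp transcript, on a per-length scale, there were 1359 and 1300 of Alb in vehicle and 6495 and 7993 in tamoxifen. The ratio of Afm to Afp was 2.64 and 2.66 in vehicle and 17.3 and 22.6 in tamoxifen, a log2 difference of 2.90. Afm stood at 0.194% and 0.205% of Alb in vehicle and at 0.266% and 0.282% in tamoxifen. Gc stood at 6.35% and 7.30% of Alb in vehicle and at 5.03% and 5.94% in tamoxifen. These ratios did not overlap between the groups, and they do not depend on the scaling of a library. In all, 10 ratios were compared, some of them after their values were seen, and with 2 libraries against 2 the two-sided exact permutation test cannot give a p below 0.333 (0.476 after adjustment over the 10), which each of these 4 had.

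The genes beside the cluster also moved in both directions. Downstream of Afm, 5830473C10Rik (named Albfm1 in RefSeq, a further member of the albumin superfamily) was at 9.78 and 6.48 FPKM in vehicle and at 24.9 and 16.5 FPKM in tamoxifen. It was higher by 1.25 in log2 units (standard error 0.28, adjusted p = 0.00969 from limma), a call that was lost without vehicle 2 (0.98, adjusted p = 0.0705) and when scaled to Alb or the hepatocyte markers. Ankrd17, an ankyrin repeat protein gene on the far side of Alb, was at 15.2 and 16.9 FPKM in vehicle and at 8.53 and 9.51 FPKM in tamoxifen (-0.77, adjusted p = 0.0183 from limma). Its difference was -0.03 after rescaling by median ratios and -0.12 after quantile normalization, and it did not pass without vehicle 2 (adjusted p = 0.0688). Rassf6, a Ras association domain gene next to 5830473C10Rik, was at 3.14 to 5.22 FPKM and did not pass (adjusted p = 0.550 from limma).

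**Figure D3:**
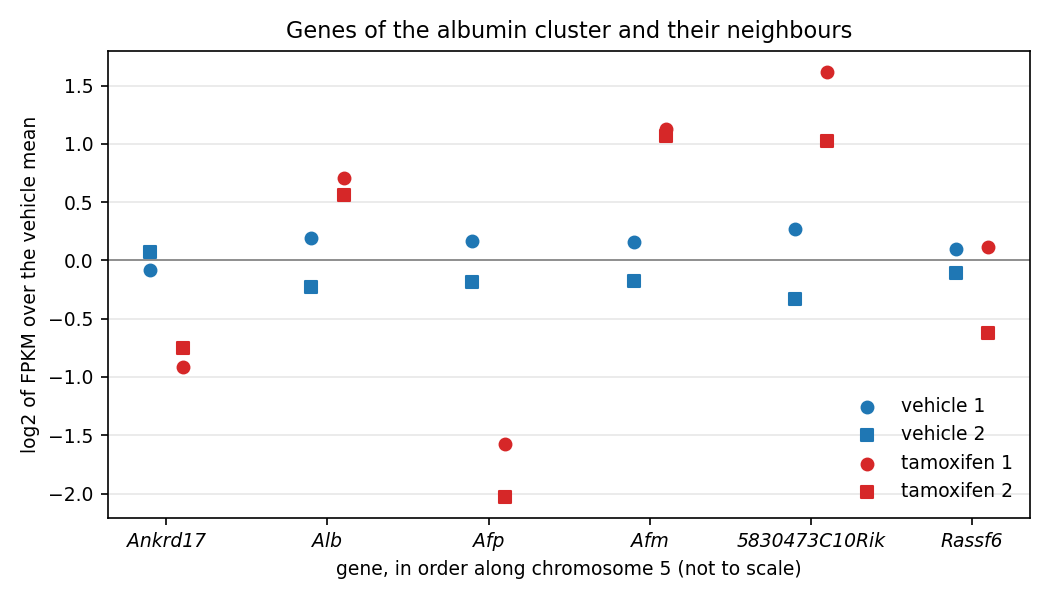
Log2 of FPKM over the vehicle mean for the genes of the albumin cluster and their tested neighbours, in their order along chromosome 5 and not to scale. Each point is 1 library (blue, vehicle; red, tamoxifen). Afp lies below the vehicle points, between Alb and Afm, which lie above them.

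Ttr, transthyretin, carries thyroxine and binds the retinol carrier Rbp4 in plasma, which keeps Rbp4 from being filtered by the kidney. Ttr was at 1899 and 1451 FPKM in vehicle and at 3009 and 2483 FPKM in tamoxifen. Its log2 fold change was 0.72 and did not pass (standard error 0.31, 95% interval -0.0059 to 1.44, adjusted p = 0.0869 from limma). Rbp4 was at 1279 and 1006 FPKM in vehicle and at 1782 and 1725 FPKM in tamoxifen. Its log2 fold change was 0.63 and did not pass (standard error 0.28, 95% interval -0.03 to 1.28, adjusted p = 0.0956 from limma). For both genes the treated libraries were above the controls. Both passed after rescaling by median ratios (adjusted p = 0.0226 for Ttr and 0.0201 for Rbp4) and without vehicle 1 (0.0340 and 0.0332), and under quantile normalization they were at -0.17 and -0.079. The proportion of the 2 partners overlapped between the groups. Rbp4 was at 0.674 and 0.693 of Ttr in vehicle and at 0.592 and 0.695 in tamoxifen, with a log2 difference of -0.092 (exact permutation test, two-sided, p = 1.0). Left without tamoxifen 1 the difference was 0.024.

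Ambp encodes a precursor that is cut into alpha-1-microglobulin, a small carrier with heme-binding activity, and bikunin, a protease inhibitor. It was at 718 and 578 FPKM in vehicle and at 1158 and 1302 FPKM in tamoxifen. The groups were clearly apart, with means of 648 ± 98.6 and 1230 ± 102 FPKM (SD, n = 2). Ambp rose by 0.93 on the log2 scale (standard error 0.26, 95% interval 0.32 to 1.54, adjusted p = 0.0223 from limma). The call was lost without vehicle 2 (adjusted p = 0.0580), tamoxifen 1 (0.101) or tamoxifen 2 (0.168), without the filter on low values (0.0645), under quantile normalization and when scaled to Alb (0.28, adjusted p = 0.393) or the hepatocyte markers (0.24, adjusted p = 0.588). Bikunin is joined to heavy chains, among them those made from Itih1 and Itih2. Itih1 rose from 55.7 and 60.7 FPKM to 193.8 and 210.1 FPKM (1.78, adjusted p = 0.000945 from limma). Itih2, the more abundant of the 2, was at 562.6 and 404.2 FPKM in vehicle and at 755.9 and 614.6 FPKM in tamoxifen and did not pass (0.51, adjusted p = 0.148 from limma; 0.0219 under median ratios). The level of Ambp was 1.16 and 1.24 times the sum of Itih1 and Itih2 in vehicle and 1.22 and 1.58 times in tamoxifen. These ratios overlapped (exact permutation test, two-sided, p = 0.667). Itih3, a further heavy chain gene named after its values were seen, was not in that sum. It rose from 331 and 255 FPKM to 1218 and 1456 FPKM (2.19, adjusted p = 0.00109 from limma), so the overlap holds for Itih1 and Itih2 only.

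Apoh, beta-2-glycoprotein I, binds anionic phospholipids and is the main target of antiphospholipid antibodies in humans. It was at 478 and 370 FPKM in vehicle and at 929 and 1026 FPKM in tamoxifen. Its log2 fold change was 1.21 (standard error 0.26, 95% interval 0.62 to 1.81, adjusted p = 0.00761 from limma). The call was lost under quantile normalization (adjusted p = 0.0575), without tamoxifen 2 (adjusted p = 0.0648) and when scaled to Alb (adjusted p = 0.0859) or the hepatocyte markers (adjusted p = 0.249).

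Azgp1, zinc-alpha-2-glycoprotein, has the fold of a class I major histocompatibility protein and promotes lipid breakdown in fat cells. It was at 387 and 324 FPKM in vehicle and at 654 and 688 FPKM in tamoxifen, with no overlap. Azgp1 rose by 0.92 on the log2 scale (standard error 0.24, 95% interval 0.37 to 1.47, adjusted p = 0.0158 from limma). The call was lost under quantile normalization (adjusted p = 0.0606), without tamoxifen 1 (adjusted p = 0.0839), without tamoxifen 2 (adjusted p = 0.114) and when scaled to Alb or the hepatocyte markers.

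Ahsg, fetuin-A, inhibits the growth of calcium phosphate crystals and blocks the insulin receptor kinase. It was at 4969 and 3932 FPKM in vehicle and at 4515 and 4903 FPKM in tamoxifen, and it was the one member whose groups overlapped. The log2 fold change was 0.09 (standard error 0.34, 95% interval -0.71 to 0.89, adjusted p = 0.836 from limma), and this interval holds the log2 fold changes of Alb, Gc, Ttr and Rbp4 as well as 0. It was -0.079 without vehicle 2. The genes beside it on chromosome 16 encode other proteins of the cystatin superfamily, and in 190.8 kilobases the files listed Ahsg, Fetub, Hrg, Kng2 and Kng1. Fetub, fetuin-B, which protects the egg coat from early hardening, rose from 82.0 and 78.7 FPKM to 350.7 and 365.4 FPKM (2.14, standard error 0.20, adjusted p = 0.000643 from limma). Hrg, histidine-rich glycoprotein, rose from 226.5 and 169.3 FPKM to 653.6 and 1071 FPKM (2.09, standard error 0.31, adjusted p = 0.00203 from limma). Kng1, the kininogen that releases bradykinin, was chosen after its values were seen and rose from 872.6 and 649.1 FPKM to 2293 and 3137 FPKM (1.83, standard error 0.31, adjusted p = 0.00341 from limma). Kng2, its paralog, was chosen in the same way and rose by 1.47 (adjusted p = 0.00286 from limma), a call lost when scaled to the hepatocyte markers (adjusted p = 0.126). Reads could be split between Kng1 and Kng2, which are similar in sequence. All 4 neighbours were thus called higher on the deposited scale and Ahsg was not, against 4.31% of all genes. Fetub and Hrg were named as the 2 largest called rises of their list, so this contrast is only a description. Within a library, Fetub was at 1.65% and 2.0% of Ahsg in vehicle and at 7.77% and 7.45% in tamoxifen, and Kng1 at 17.6% and 16.5% against 50.8% and 64.0%, with no overlap (exact permutation test, two-sided, p = 0.333 for each, the smallest possible).

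The profile of Alb over the 4 libraries was compared with the 555 genes of at least 100 FPKM on average. The nearest by Euclidean distance of centred log2 values were Gjb1, a gap junction protein of hepatocytes (distance 0.04), Apom, a lipoprotein that carries sphingosine-1-phosphate (0.08), and Aqp9, a glycerol channel (0.08). Gjb1 was at 104.1 and 75.8 FPKM in vehicle and at 148.2 and 130.0 FPKM in tamoxifen. With 4 libraries this likeness is a description. Among the members Rbp4 was the 6th and Ttr the 9th nearest gene to Alb, whereas Ahsg ranked 138 and Apoh 144.

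Other secreted proteins of hepatocytes were described from lists written with earlier results of these data known. Of 27 other constitutive plasma proteins, all tested, 15 were higher, 1 was lower and 11 did not pass. Among all genes 4.31% were higher and 46.7% lower. The median of the list was 0.78, against 0.68 for the 10 members. Besides Fetub and Hrg, Apoa1, the main protein of high-density lipoprotein, rose from 2037 and 2036 FPKM to 4775 and 4935 FPKM (1.25, adjusted p = 0.0133 from limma), a call lost when scaled to Alb (0.60, adjusted p = 0.0807) or to the hepatocyte markers (0.56, adjusted p = 0.167). Trf, transferrin, was at 4319 and 3430 FPKM in vehicle and at 5643 and 5751 FPKM in tamoxifen and did not pass (0.57, adjusted p = 0.197 from limma; 0.0486 under median ratios). Serpina6, which carries glucocorticoids, fell from 113.0 and 65.9 FPKM to 57.9 and 20.7 FPKM (-1.29, adjusted p = 0.0488 from limma), and this call was lost without vehicle 2 (adjusted p = 0.101) and under median ratios (adjusted p = 0.460) and quantile normalization (adjusted p = 0.175). Without tamoxifen 2, 8 of the 27 were higher.

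Positive acute phase proteins are made by hepatocytes in response to interleukins. Of 26 tested 21 were higher, 2 were lower and 3 did not pass, against 4.31% higher and 46.7% lower among all genes. The median of the list was 2.17, against 0.68 for the members. Saa1, serum amyloid A, rose from 13.1 and 19.1 FPKM to 208.2 and 519.0 FPKM (4.3, standard error 0.41, adjusted p = 0.000643 from limma), and Saa2 rose by 4.12. The 2 paralogs are near-identical, and how reads were divided between them is uncertain. Hp, haptoglobin, which binds free hemoglobin, rose from 1017 and 1042 FPKM to 4597 and 5941 FPKM (2.34, adjusted p = 0.00142 from limma). Hpx, hemopexin, which binds heme, rose from 2124 and 2115 FPKM to 5529 and 6666 FPKM (1.52, adjusted p = 0.00779 from limma). The 2 that fell were Cd14 (-3.27), a receptor for bacterial lipopolysaccharide that macrophages also make, and Il1rn (-1.77), the interleukin-1 receptor antagonist. The Kupffer cell markers given above were lower too, as were 46.7% of all genes, and the part of these cells in the 2 falls was not tested. Il1rn did not pass under median ratios (adjusted p = 0.0695) or quantile normalization (adjusted p = 0.0692).

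**Figure D4:**
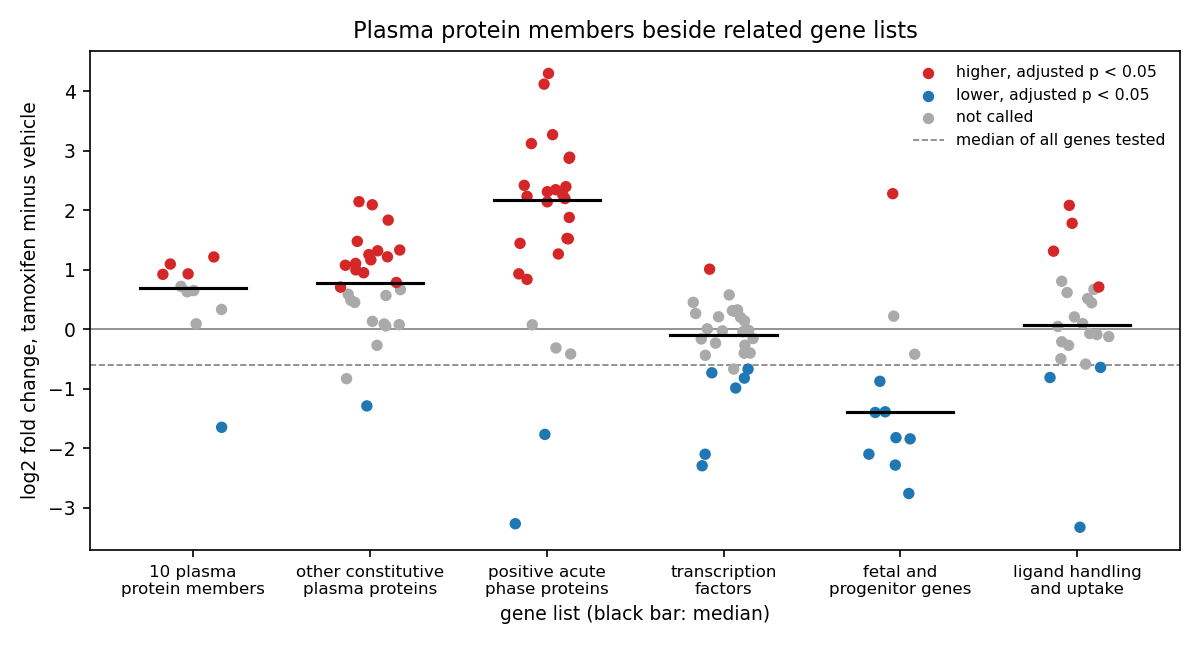
Log2 fold change (tamoxifen minus vehicle, from limma on log2(FPKM + 1)) of each tested gene of the members and 5 lists. Red points were called higher and blue points lower at an adjusted p under 0.05, black bars are medians and the dashed line is the median of all genes (-0.60). The medians are 0.68 for the members, 0.78 for other constitutive proteins and 2.17 for acute phase proteins.

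Transcription factors known to act on the albumin family gave counts that depended on the scaling. Of 28 tested out of 30, 1 was higher, 6 were lower and 21 did not pass, with a median of -0.10, against 4.31% higher and 46.7% lower among all genes. Under median ratios 12 were higher and 2 lower (16.6% and 19.4% of all genes), and under quantile normalization 8 were higher and 2 lower (13.5% and 15.2%). Hnf4a, a nuclear receptor that maintains hepatocyte identity, rose from 78.3 and 56.0 FPKM to 121.1 and 148.6 FPKM (1.01, standard error 0.24, adjusted p = 0.0122 from limma). This call was lost without vehicle 2 (0.77) and when scaled to Alb (0.37, adjusted p = 0.285). It was also lost when scaled to the 15 hepatocyte markers, of which Hnf4a is 1 (0.33, adjusted p = 0.534). Cebpb, a leucine zipper factor of the acute phase response, was at 58.2 to 75.3 FPKM and did not pass (-0.16, adjusted p = 0.527 from limma), though it was called higher under median ratios (0.62, adjusted p = 0.0393) and lower when scaled to Alb (-0.80, adjusted p = 0.0250). Nfya, a subunit of the factor that binds CCAAT, fell from 9.73 and 15 FPKM to 2.23 and 1.21 FPKM (-2.29, adjusted p = 0.00138 from limma). The other subunits, named after their values were seen, differed less. Nfyb did not pass (-0.23, adjusted p = 0.396 from limma) and Nfyc was lower (-0.73, adjusted p = 0.0282 from limma). Gata4 fell from 12.2 and 17.4 FPKM to 3.28 and 2.07 FPKM (-2.10, adjusted p = 0.00140 from limma). Gata4 is also expressed in endothelial and stellate cells, whose markers fell as given above, and the part of these cells in its fall was not tested.

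The next pair of factors was chosen after their values were seen, because of a known role. Zhx2 and Zbtb20 repress Afp in mouse liver after birth. Zhx2 was at 2.45 and 3.37 FPKM in vehicle and at 1.54 and 0.900 FPKM in tamoxifen (-0.82, adjusted p = 0.0346 from limma). Zbtb20 was at 7.49 and 6.03 FPKM in vehicle and at 4.27 and 3.47 FPKM in tamoxifen (-0.67, adjusted p = 0.0442 from limma). Both differences were near the median of all genes and turned to 0.10 and 0.14 under quantile normalization, and without vehicle 2 neither passed (adjusted p = 0.0992 for Zhx2 and 0.0579 for Zbtb20).

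Genes of the fetal liver and of liver progenitors were described beside Afp. Of 20 listed, 19 were in the files and 11 were tested. Of these 8 were lower, 1 was higher and 2 did not pass, with a median of -1.40. Gpc3, Krt19, Prom1 and Sox4, all called lower, reached 1 FPKM only in vehicle. The filter favoured a lower value for them, and they are part of this count and median. Of all genes 46.7% were lower and 4.31% higher. Under quantile normalization 4 of the list were lower and 2 higher, against 15.2% and 13.5% of all genes. The list shares 5 genes with the cholangiocyte markers used here, and others of it, Cd24a, Prom1 and Sox4 among them, are also made by bile duct cells. The cholangiocyte sum was 202 and 538 in vehicle against 53.1 and 94.8 in tamoxifen, and its part in the list's count was not tested. Cd24a, a surface marker of progenitors, fell from 11.0 and 32.2 FPKM to 1.91 and 1.98 FPKM (-2.76, adjusted p = 0.00252 from limma). Spp1, osteopontin, which is also a cholangiocyte and macrophage transcript, fell from 192.4 and 509.1 FPKM to 46.4 and 87.0 FPKM (-2.28, adjusted p = 0.00697 from limma). Ly6d, a surface protein of the Ly6 family, fell from 72.4 and 80.4 FPKM to 30.7 and 13.7 FPKM (-1.84, adjusted p = 0.00485 from limma), and did not pass without vehicle 2 (adjusted p = 0.0553). Peg3, an imprinted gene, rose from 2.31 and 1.67 FPKM to 11.9 and 15.02 FPKM (2.28, adjusted p = 0.000827 from limma). Gpc3, glypican-3, which like Afp is a marker of liver cancer and was chosen after its values were seen, was at 1.13 and 1.66 FPKM in vehicle and at 0.380 and 0.220 FPKM in tamoxifen (-0.88, adjusted p = 0.0226 from limma). Because Gpc3 reached 1 FPKM only in vehicle, the filter favoured its fall. It did not pass under median ratios (adjusted p = 0.0703) or quantile normalization (adjusted p = 0.616). Igf2, a fetal growth factor, was under 1 FPKM in all 4 libraries and was not tested.

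Genes that handle or take up the ligands of the carriers moved in both directions. Of 30 listed 22 were tested, with 4 higher, 3 lower and 15 not called, and a median of 0.07. Among all genes 4.31% were higher and 46.7% lower. Under median ratios 12 were higher and 1 lower, against 16.6% and 19.4% of all genes. Cyp27a1, a sterol hydroxylase that can also hydroxylate vitamin D, rose from 61.7 and 49.9 FPKM to 213.8 and 264.5 FPKM (2.08, adjusted p = 0.000872 from limma). Lrat, which stores retinol as esters and is a stellate cell marker, fell from 9.65 and 18.9 FPKM to 0.450 FPKM in both tamoxifen libraries (-3.33, adjusted p = 0.000643 from limma). Lrat reached 1 FPKM only in vehicle, so the filter favoured a fall. Thra, a thyroid hormone receptor, was at 6.65 and 7.63 FPKM in vehicle and at 3.26 and 4.03 FPKM in tamoxifen (-0.81, adjusted p = 0.0210 from limma), and its difference was 0.01 under quantile normalization and did not pass without vehicle 2 (adjusted p = 0.0721). Fcgrt, the heavy chain of the receptor that rescues albumin from breakdown, was named after its values were seen. It was at 80.35 and 95.73 FPKM in vehicle and at 60.04 and 51.95 FPKM in tamoxifen. Fcgrt was called lower (-0.64, adjusted p = 0.0364 from limma), near the median of all genes (-0.60). B2m, the light chain of that receptor, did not pass (-0.59, adjusted p = 0.115 from limma), and neither did Aldh1a1, a retinal dehydrogenase (-0.50, adjusted p = 0.192 from limma). Both were positive after rescaling by median ratios (0.21 and 0.30), and both were called lower under quantile normalization (-1.33 for B2m and -1.02 for Aldh1a1), scaled to Alb (-1.23 and -1.15) and scaled to the hepatocyte markers (-1.28 and -1.19).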

How the data were processed

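Poly(A) RNA of hepatocytes was sequenced in 2 vehicle and 2 tamoxifen libraries (Illumina). The authors computed FPKM per gene and deposited 1 table for each library. The submitters' processing notes list RSEM, StringTie 1.3.1, HISAT2, Bowtie2 and fastp 0.18.0 with no roles. The sources used here give neither the genome build nor the annotation. Since FPKM hides the counts, depth was read off the steps between low values. Because FPKM divides by the library total, a few abundant transcripts set the scale of the others.

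Values were fitted as log2(FPKM + 1) with limma 3.58.1 in R 4.3.3 (lmFit, eBayes with trend), for genes that reached 1 FPKM in 2 or more of the 4 libraries. P-values were adjusted by Benjamini-Hochberg over 11633 genes. Fold changes are on this scale and understate changes of low genes. A gene under 1 FPKM in both libraries of a group was tested only if the other group reached it, which favours 1 direction. Symbols and coordinates came from GENCODE M21 and promoter windows from RefSeq (GRCm38.p6). The members and lists were chosen with earlier results of these data known. Genes named were every member, in each list the 2 largest called falls, the 2 largest called rises and the 2 highest means, the 3 genes nearest to Alb and the genes beside the cluster, and others are said to be chosen after their values were seen. Alternatives were another pseudocount (0.1), other filters, 2 normalizations, sample weights, each library left out, a replicate block and, added after seeing the data, rescaling to genes outside the mitochondrial genome, to Alb or to 15 hepatocyte markers.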

Additional observations from a re-analysis of the deposited data

How the results depend on the processing

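Of 149 values of the members under an alternative, 112 kept their direction and their side of the threshold, 18 lost a call, 7 gained one and 12 turned. The 112 include Alb under quantile normalization, where its value of 0 has no direction. Afp was called lower under every alternative run. Under quantile normalization Gc was at -0.42, Ttr at -0.17, Rbp4 at -0.079 and Ahsg at -0.50, and Alb was at 0 by construction since it is the top gene of every library. Scaled to Alb, Gc was at -0.32, Rbp4 at -0.021 and Ahsg at -0.56, and scaled to the hepatocyte markers Alb was at -0.042, Gc at -0.36, Rbp4 at -0.062 and Ahsg at -0.60. With 1 library left out Ahsg ran from -0.079 (without vehicle 2) to 0.26. Leaving out 1 library gave log2 differences of Rbp4 to Ttr from -0.21 to 0.024. Among the members 1 was higher under quantile normalization, 0 when scaled to Alb or to the hepatocyte markers, and 1 to 7 when 1 library was left out. Their share of summed FPKM differed by 3.13 points, by 0.552 without Alb, by 4.67 of the total outside the mitochondrial genome and by 2.16 to 4.09 with 1 library left out.

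Of all genes 5432 were lower and 501 higher. Lower genes numbered 2259 under median ratios, 1765 under quantile normalization, 3538 scaled to genes outside the 100 most abundant, 3182 at a mean of at least 5 FPKM and 2555 to 5531 with 1 library left out. Higher genes numbered 1929, 1569 and 794 under those 3 scalings, 167 scaled to Alb, 100 scaled to the hepatocyte markers and 263 to 500 with 1 library left out. In the lists, under median ratios, 0 other constitutive proteins, 1 acute phase protein, 2 transcription factors and 1 ligand gene were lower, and 12 transcription factors, 2 fetal genes and 12 ligand genes were higher. Under quantile normalization 1 acute phase protein, 2 factors and 4 fetal genes were lower, and 8 factors and 2 fetal genes were higher. Scaled outside the 100 most abundant genes, 0 constitutive proteins, 3 factors and 1 ligand gene were lower and 2 factors higher. Without the filter 0 constitutive proteins, 1 acute phase protein, 3 factors, 5 fetal genes and 1 ligand gene were lower. At a mean of at least 5 FPKM 0 constitutive proteins and 4 fetal genes were lower, and with sample weights 0 constitutive proteins were. With 1 library left out, lower and higher genes ranged from 0 to 1 and 8 to 18 for constitutive proteins, 2 to 3 and 16 to 20 for acute phase proteins, 2 to 4 and 0 to 1 for factors, 6 to 8 and 1 to 1 for fetal genes, and 1 to 4 and 3 to 5 for ligand genes. The cause of these shifts was not tested.

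The replicate numbers are shared labels that do not pair the libraries by any source, and the deviations of vehicle 1 and tamoxifen 1 from their group means correlated at r = 0.28 over 11633 genes. With the replicate number as a block, 5863 genes were lower, 573 were higher, 4 members were higher and 1 was lower, 2 constitutive proteins were lower, and no member changed its call. With 2 libraries per group the standard errors of the members were 0.21 to 0.53 on the log2 scale, and the depth of each library is an estimate.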
